A study of Mus musculus with 3008 samples.

Results

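Gata3, Il1rl1, Klrg1 and Rora were described in Foxp3+ regulatory T cells (Tregs) of the colon and the spleen. They are 4 of the 23725 genes in the counts table and were chosen by name. The measurements are UMI counts (unique molecular identifiers, each tagging 1 captured transcript) of single cells sequenced by inDrops, a droplet method. There were 2 libraries of colon lamina propria Tregs, colon 1 and colon 2, and 1 library of spleen Tregs, with 3008 cells in all. All cells came from B6 Foxp3-Ires-Gfp male mice aged 7 months, in which green fluorescent protein marks cells that transcribe Foxp3, and every library was sorted for DAPI- TCRb+ CD4+ GFP+ cells. Colons were digested with collagenase and dispase while spleens were broken up mechanically, so tissue and dissociation cannot be told apart in any comparison below. The labels name no animal, and whether both colon libraries share mice is not given. Each tissue was therefore 1 sample, no p-value was computed, and every interval covers counting error only.

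GATA3 is a zinc finger transcription factor known for driving the type 2 helper T cell fate, and it is also kept by a part of the Tregs of barrier tissues. Il1rl1 encodes ST2, the receptor for the alarmin IL-33, which signals through MyD88 with the co-receptor encoded by Il1rap. Klrg1 encodes an inhibitory lectin-like receptor that binds cadherins and marks differentiated lymphocytes. Rora encodes the nuclear receptor RORα, known in mice for its part in group 2 innate lymphoid cells and in tissue Tregs. In the mouse colon, GATA3+ ST2+ Tregs commonly also carry Helios (Ikzf2).

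On the mm10 build with the GENCODE vM21 annotation, Il1rl1 spans chromosome 1 from 40429570 to 40465415 on the plus strand. Gata3 lies on chromosome 2 from 9857078 to 9890034 on the minus strand. Klrg1 lies on chromosome 6 from 122270596 to 122282882 on the minus strand, and Rora lies on chromosome 9 from 68653786 to 69388246 on the plus strand. Of the 5 annotated Il1rl1 transcripts, 2 reach the far 3′ end of the gene (40465396 and 40465415), while the transcript with the outermost start, at 40429570, ends at 40446723. A short Il1rl1 transcript is known to encode soluble ST2 and a long one the membrane receptor. The counts are summed per gene, so neither the form nor the start can be read from them.

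The windows around the annotated starts of Il1rl1 and Gata3 are shown, each from 250 bases before to 50 bases after the start. They are from RefSeq on GRCm38.p6, the assembly of mm10, and no window was matched to Klrg1. The Gata3 window lies at an inner start, 9878600, while the outermost Gata3 start in the GENCODE annotation is 9890034. Among pairs of the members with at least 5 expected cells, Gata3 and Il1rl1 had the highest ratio of observed to expected cells with both in colon, 2.32 and 2.02. Il1rl1 with Klrg1 was close, at 2.07 and 1.93, with overlapping intervals. By correlation across colon cells, Gata3 with Il1rl1 ranked below both pairings with Klrg1. Capitals mark 4 GATA words, namely AGATAA as well as AGATAG, then TGATAA as well as TGATAG, on either strand and the word AGGTCA, the core of ROR-binding sequences, on either strand.
Il1rl1 outer start, chr1:40429320-40429619, plus strand: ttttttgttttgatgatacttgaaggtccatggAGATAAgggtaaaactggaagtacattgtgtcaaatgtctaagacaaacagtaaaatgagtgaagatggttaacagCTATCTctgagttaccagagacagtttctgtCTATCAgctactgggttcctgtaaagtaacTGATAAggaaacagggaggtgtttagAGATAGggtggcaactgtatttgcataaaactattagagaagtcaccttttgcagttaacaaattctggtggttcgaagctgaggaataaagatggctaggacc
Il1rl1 inner start, chr1:40439379-40439678, plus strand: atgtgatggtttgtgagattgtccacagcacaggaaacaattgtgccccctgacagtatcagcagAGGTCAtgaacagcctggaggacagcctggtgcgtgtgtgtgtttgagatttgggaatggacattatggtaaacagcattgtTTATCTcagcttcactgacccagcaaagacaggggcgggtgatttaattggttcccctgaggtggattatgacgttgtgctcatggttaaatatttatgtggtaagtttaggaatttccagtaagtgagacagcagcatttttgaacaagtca
Gata3, chr2:9878551-9878850, minus strand: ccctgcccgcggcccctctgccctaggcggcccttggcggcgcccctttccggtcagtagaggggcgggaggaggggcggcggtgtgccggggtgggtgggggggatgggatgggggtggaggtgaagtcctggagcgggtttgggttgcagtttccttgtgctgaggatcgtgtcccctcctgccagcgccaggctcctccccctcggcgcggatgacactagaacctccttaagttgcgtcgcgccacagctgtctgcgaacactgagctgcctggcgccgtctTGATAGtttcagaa
The outer Il1rl1 window held 5 GATA words and the inner one held 1 GATA word and 1 AGGTCA word. The Gata3 window held 1 GATA word, and so did the Rora window, chr9:68653536-68653835 on the plus strand. Of 32544 windows of the same length, 29.6% held at least 1 of the GATA words, 16.2% held AGGTCA and 5.19% held the AP-1 word TGACTCA, which none of the members' windows held. Only 18 windows, or 0.0553%, held 5 or more GATA words. That number was picked after the Il1rl1 window had been counted. The windows were not matched for base content. G and C made up 38.67% of the outer Il1rl1 window and 44.67% of the inner one, against 67.33% for Gata3 and 60.33% for Rora. The part of base content in the number of GATA words was not tested. The words do not overlap each other, and a match is a description of the letters, not of binding.

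The libraries held 1253246 UMIs in colon 1, 3916649 in colon 2 and 1255946 in spleen, with medians of 1767, 2026.5 and 1847 UMIs per cell. Ribosomal protein genes took 17.6% and 16.3% of the UMIs in the colon libraries and 28.5% in spleen. A list of 15 genes known to respond to cell dissociation summed to 7349 CPM in colon 1 and 8546 CPM in colon 2, against 4093 CPM in spleen, and its part in the results was not tested. Lists of markers of 7 other cell types summed to at most 78.2 CPM in colon 1, 69.96 CPM in colon 2 and 102.7 CPM in spleen. Among them, the 7 markers of type 2 innate lymphoid and helper cells summed to 78.2 and 69.96 CPM in colon and 40.6 CPM in spleen, with Il5 at 0 UMIs in every library. The 11 mast cell and basophil markers summed to 9.58 and 9.19 CPM in colon and 0 in spleen, and 9 of them had no UMI anywhere. Cell barcodes shared by libraries numbered 9 between the colon libraries, 5 between colon 1 and spleen, and 11 between colon 2 and spleen.

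Gata3 was higher in colon Tregs in the number of transcripts per positive cell, while the shares of cells with any overlapped between the tissues. Its level was 503.5 CPM in colon 1 and 494.6 CPM in colon 2, against 296.2 CPM in spleen, where CPM is UMIs per 1000000 UMIs of the library. The exact 95% Poisson intervals were 464.97 to 544.4, 472.8 to 517.1, and 266.9 to 327.9 CPM, so the colon libraries did not differ beyond counting error and both lay above spleen. A Gata3 UMI was found in 31.7% of the cells of colon 1 and 33.6% of colon 2, against 32.1% of spleen cells. With every cell thinned at random to 1000 UMIs, and shallower cells left out, the shares were 23.6% (95% Clopper-Pearson interval 20.3 to 27.2) and 25% (22.98 to 27.1) in colon and 21.7% (18.5 to 25.2) in spleen, which overlap. The mean colon share was higher by 2.61 percentage points, with an interval of -1.82 to 6.95. It was 5.90 points at 500 UMIs per cell, 1.28 at 1500 and 0.558 without thinning. Thinning left out 9, 28 and 4 cells of colon 1, colon 2 and spleen.

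The number of Gata3 UMIs per positive cell differed. Positive cells held 3.22 UMIs on average in colon 1 and 3.25 in colon 2, against 1.88 in spleen, with maxima of 14, 25 and 8. At 1000 UMIs per cell, 3 or more Gata3 UMIs were counted in 7.87% of the cells of colon 1 (interval 5.86 to 10.3) and 6.71% of colon 2 (5.58 to 7.99), against 2.12% of spleen cells (1.13 to 3.60). Cells with exactly 1 UMI made up 11.1% and 13.2% in colon and 15.3% in spleen, shares for which no intervals were computed. Without thinning, cells with 6 or more Gata3 UMIs made up 6.14% of colon 1 and 5.42% of colon 2 and held 49.3% and 45.3% of all Gata3 UMIs there. In spleen they were 4 cells, 0.648%, holding 7.53% of the UMIs. Had every cell carried its library's average level, 60.5% and 63.4% of colon cells and 43.9% of spleen cells would have had a Gata3 UMI, so the observed cells were 0.523 and 0.530 of that number in colon and 0.731 in spleen. This ratio approaches 1 at low levels, so it is not compared between genes or tissues of unlike level.

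**Figure D1:**
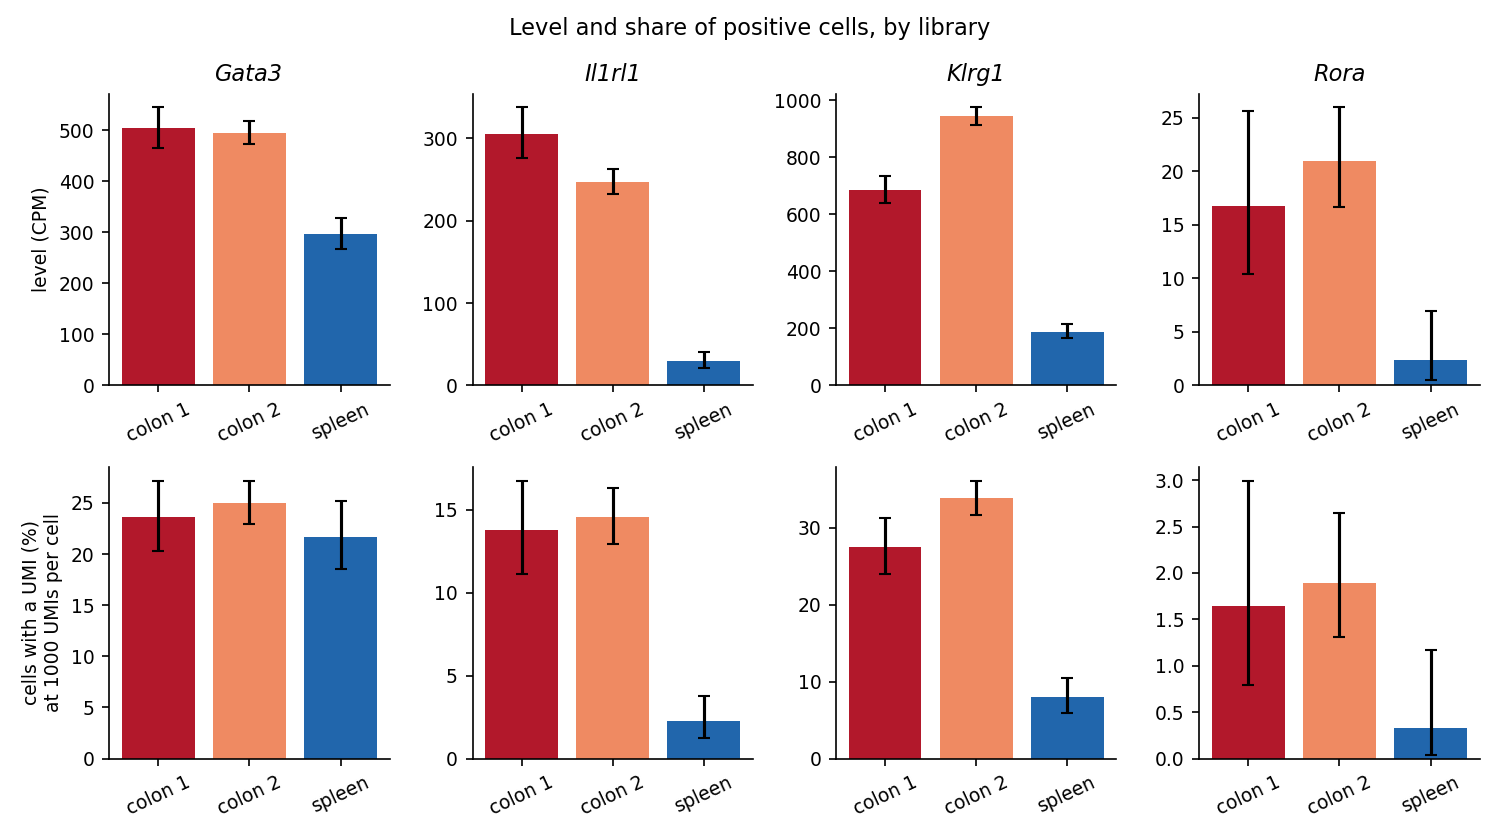
Level in CPM with exact 95% Poisson intervals (top row) and percent of cells with a UMI after thinning to 1000 UMIs per cell with 95% Clopper-Pearson intervals (bottom row), for each gene in colon 1, colon 2 and spleen. Gata3 stands higher in colon in the top row (503.5 and 494.6 against 296.2 CPM) while its shares of cells overlap in the bottom row (23.6% and 25% against 21.7%), whereas Il1rl1 and Klrg1 are higher in colon in both rows with no overlap. The low Rora shares overlap between colon 1 (1.64%) and spleen (0.326%).

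Il1rl1 was sparse in spleen Tregs by both measures. Its level was 305.6 CPM (interval 275.8 to 337.8) in colon 1 and 247.4 CPM (232.1 to 263.5) in colon 2, against 29.5 CPM (20.7 to 40.6) in spleen, in that order and with no overlap between neighbours. At 1000 UMIs per cell it was detected in 13.8% (11.1 to 16.8) of cells in colon 1 and 14.6% (12.9 to 16.3) in colon 2, against 2.28% (1.25 to 3.802) in spleen. Without thinning, the shares were 21.002% and 20.99% in colon and 4.54% in spleen. Of the 28 spleen cells with an Il1rl1 UMI, 23 had exactly 1 and none had more than 4, while 20 cells of colon 1 and 35 cells of colon 2 had 6 or more. The 5% of cells with most Il1rl1 held 52.5% and 50.4% of its UMIs in colon 1 and colon 2, and all of them in spleen, where fewer cells than that had any.

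Klrg1 was higher in colon Tregs and differed between the colon libraries. It stood at 686.2 CPM (641.1 to 733.7) in colon 1 and 944.2 CPM (913.99 to 975.1) in colon 2, against 188.7 CPM (165.4 to 214.3) in spleen. These are 3.64-fold (3.15 to 4.22) and 5.004-fold (4.39 to 5.73) the spleen level, and colon 2 was 1.38-fold colon 1. At 1000 UMIs, 27.5% (24.03 to 31.3) and 33.8% (31.6 to 36.1) of colon cells had a UMI, against 7.99% (5.97 to 10.4) of spleen cells. Its positive cells held 4.13 and 5.22 UMIs on average in colon and 3.65 in spleen, and they numbered 0.473 and 0.478 of the even-level number in colon and 0.338 in spleen. In spleen, 14 cells with 6 or more UMIs held 49.8% of all Klrg1 UMIs.

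**Figure D2:**
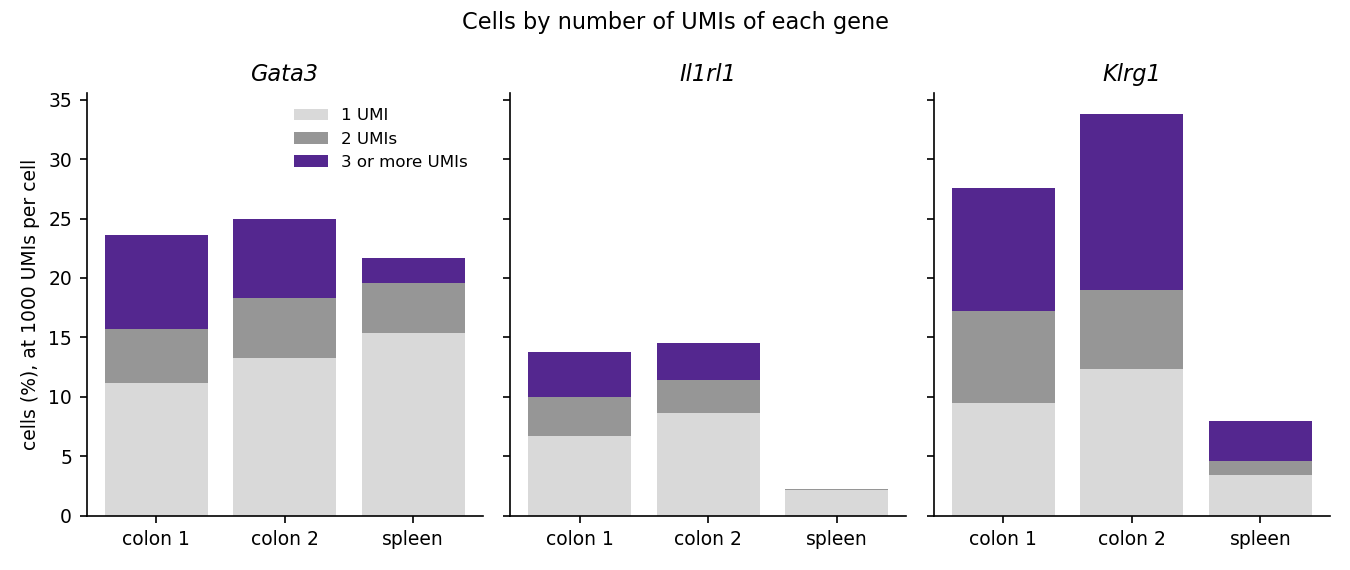
Stacked percent of cells with 1, 2, and 3 or more UMIs of Gata3, Il1rl1 and Klrg1 in colon 1, colon 2 and spleen, each cell thinned to 1000 UMIs. For Gata3 the bars are of like height, with 3 or more UMIs in 7.87% and 6.71% of colon cells and 2.12% of spleen cells, and no spleen cell reached 3 UMIs of Il1rl1.

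Rora was near the limit of detection. It had 21 UMIs in 17 cells of colon 1 and 82 UMIs in 69 cells of colon 2, against 3 UMIs in 3 spleen cells, or 16.8 CPM (10.4 to 25.6) and 20.9 CPM (16.7 to 25.99) in colon and 2.39 CPM (0.493 to 6.98) in spleen. The ratios to spleen were 7.02 (2.09 to 36.7) and 8.76 (2.90 to 43.4). The colon libraries did not differ beyond counting error. Of the Rora positive cells, 14 of 17 in colon 1 and 59 of 69 in colon 2 held a lone UMI, as did all 3 in spleen.

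Among the members, 3 of 4 reached 50 CPM in spleen or in both colon libraries, the level required for counts of genes, and Rora did not. Il1rl1 and Klrg1 exceeded spleen by 2-fold or more in colon 1 and in colon 2, and so did 11.7% of 3482 such genes, while 4.45% were lower by as much. With totals that leave out ribosomal protein genes, 7.92% were higher and 7.99% lower. Gata3 stayed under 2-fold, at 1.70 (1.49 to 1.94) and 1.67 (1.49 to 1.87). By mean log2 ratio, Il1rl1 stood the highest of the 3, with 73 of the 3482 genes above it. The ratios of colon 1 and colon 2 are both set against 1 spleen library. 

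Gata3, Il1rl1 and Klrg1 were found in the same colon cells more often than their shares give. Co-detection was read at 1000 UMIs per cell, and the expected number of cells with both genes is the product of their shares times the cells. Gata3 and Il1rl1 were both found in 46 cells of colon 1, where 19.8 were expected, a ratio of 2.32 (1.70 to 3.09), and in colon 2 the ratio was 2.02 (1.68 to 2.40), with 63.5 cells expected. In other words, 31.9% of Gata3+ cells and 8.15% of Gata3- cells of colon 1 had an Il1rl1 UMI, and 29.4% and 9.63% in colon 2. In spleen, 2 cells had both genes, where 3.04 were expected, too few for a ratio. An Il1rl1 UMI was found there in 1.504% of Gata3+ and 2.50% of Gata3- cells.

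Klrg1 was found in 51.4% of Gata3+ and 20.2% of Gata3- cells of colon 1 (ratio 1.87, 1.47 to 2.34) and in 59.2% and 25.4% in colon 2 (ratio 1.75, 1.54 to 1.98). In spleen it was found in 12.03% of Gata3+ and 6.88% of Gata3- cells, a ratio of 1.505 whose interval of 0.860 to 2.44 includes 1. Il1rl1 and Klrg1 were paired at 2.07 (1.53 to 2.75) and 1.93 (1.65 to 2.25) times the expected cells in colon. Klrg1 was found in 57.1% and 65.4% of Il1rl1+ colon cells, and in 0 of 14 Il1rl1+ spleen cells, where 1.12 were expected. Whether these ratios differ between colon and spleen was not tested.

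**Figure D3:**
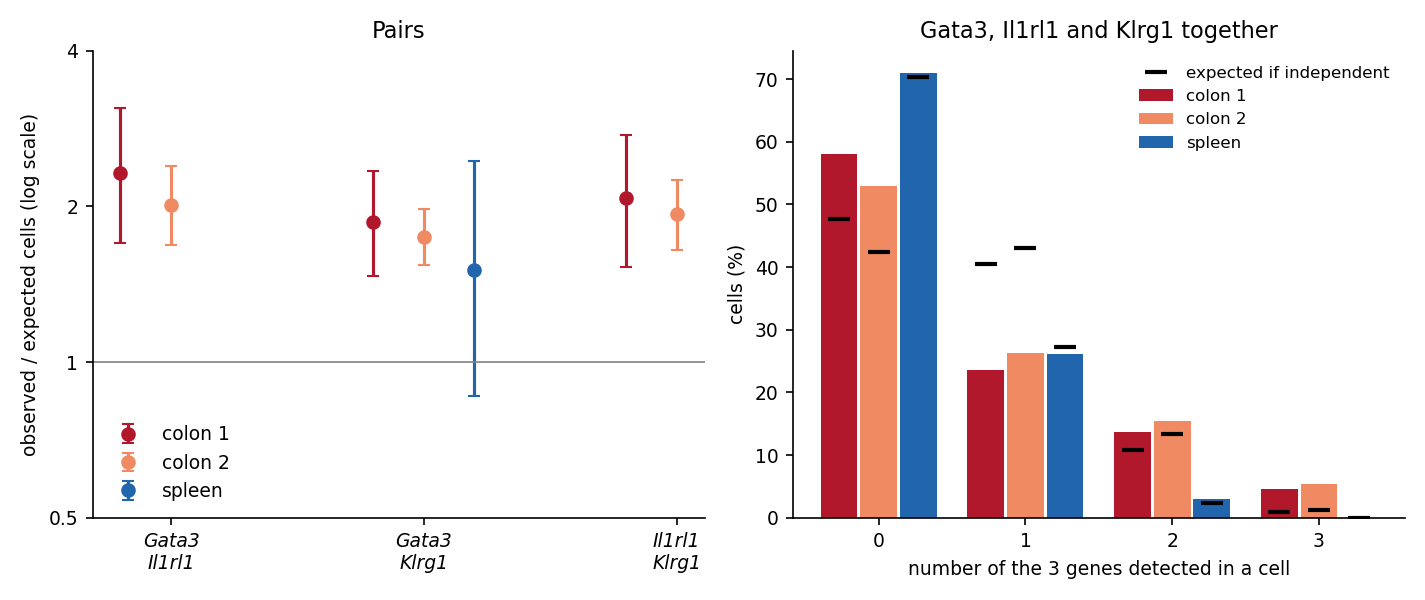
Left, observed over expected cells with both genes (log axis) with exact 95% intervals for 3 pairs in colon 1, colon 2 and spleen, leaving out points with under 5 expected cells. Right, percent of cells in which 0, 1, 2 or 3 of Gata3, Il1rl1 and Klrg1 were detected, with black marks for the percent expected if the genes were independent. Colon ratios lie between 1.75 and 2.32, and colon cells with all 3 genes (4.59% and 5.39%) exceed their marks.

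All 3 genes together were detected in 28 of 610 cells of colon 1 (4.59%, 3.07 to 6.57) and in 94 cells of colon 2 (5.39%, 4.38 to 6.56), against 0 spleen cells, for which the exact upper limit is 0.600%. Independence would give 5.46, 21.5 and 0.243 cells, so the colon counts were 5.13 and 4.38 times the expected. With 0.243 cells expected, the spleen count could not have shown a deficit and is too low to set against the colon ratios. Cells with none of the 3 also exceeded the expected, at 1.22 times in colon 1 (58.03% of cells) and 1.25 times in colon 2 (52.9%). In spleen the ratio was 1.01 (70.96%). Cells with Il1rl1 alone were the scarcest against expectation in colon, 18 observed and 46.5 expected in colon 1 and 0.428 times the expected in colon 2.

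Cells with all 3 genes were described by their depth and by Treg genes. On average they held 2297.6 UMIs in colon 1, where cells with none held 2104.6, and 2408.6 UMIs in colon 2, where cells with none held 2234.4. By the median they were shallower than cells with none in colon 1 and deeper in colon 2. Only 2 of the 28 and 2 of the 94 had over 3 times their library's median UMIs. Foxp3, the defining Treg factor, stood at 590.7 CPM (417.99 to 810.7) and 229.7 CPM (171.5 to 301.2) in them, against 409.4 and 304.3 CPM in cells with none, higher in colon 1 and lower in colon 2, with overlapping intervals in both. Il2ra, the high-affinity IL-2 receptor chain, was higher in them in both libraries, 870.5 and 1492.9 CPM against 520.8 and 674.2 CPM. Ctla4, an inhibitory receptor of Tregs, was lower in them, 2098 CPM (1759 to 2484) and 1647 CPM (1484.5 to 1823), against 2703 CPM (2586 to 2824) and 2408 CPM (2341 to 2476) in cells with none. Cd4 was lower, 357.5 and 618.4 CPM against 695.3 and 1020.8 CPM. The markers of type 2 innate lymphoid and helper cells summed to 93.3 and 136.9 CPM in them and 60.4 and 40.8 CPM in cells with none, and the dissociation list to 9948 and 9929 CPM and 6643 and 7360 CPM. The part of either list in these differences was not tested.

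Detection of the partners was read against the number of Gata3 UMIs in a cell. In colon 2, Klrg1 was found in 25.4% of cells with no Gata3 UMI, 51.9% with 1, 61.4% with 2 and 71.8% with 3 or more. In colon 1 the shares were 20.2%, 50%, 50% and 54.2%. Il1rl1 ran 9.63%, 25.97%, 28.4% and 36.8% in colon 2 and 8.15%, 30.9%, 28.6% and 35.4% in colon 1. The main step for both partners was thus between no UMI and 1. Spleen cells with 3 or more Gata3 UMIs numbered 13, of which 2 had a Klrg1 UMI and none an Il1rl1 UMI.

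**Figure D4:**
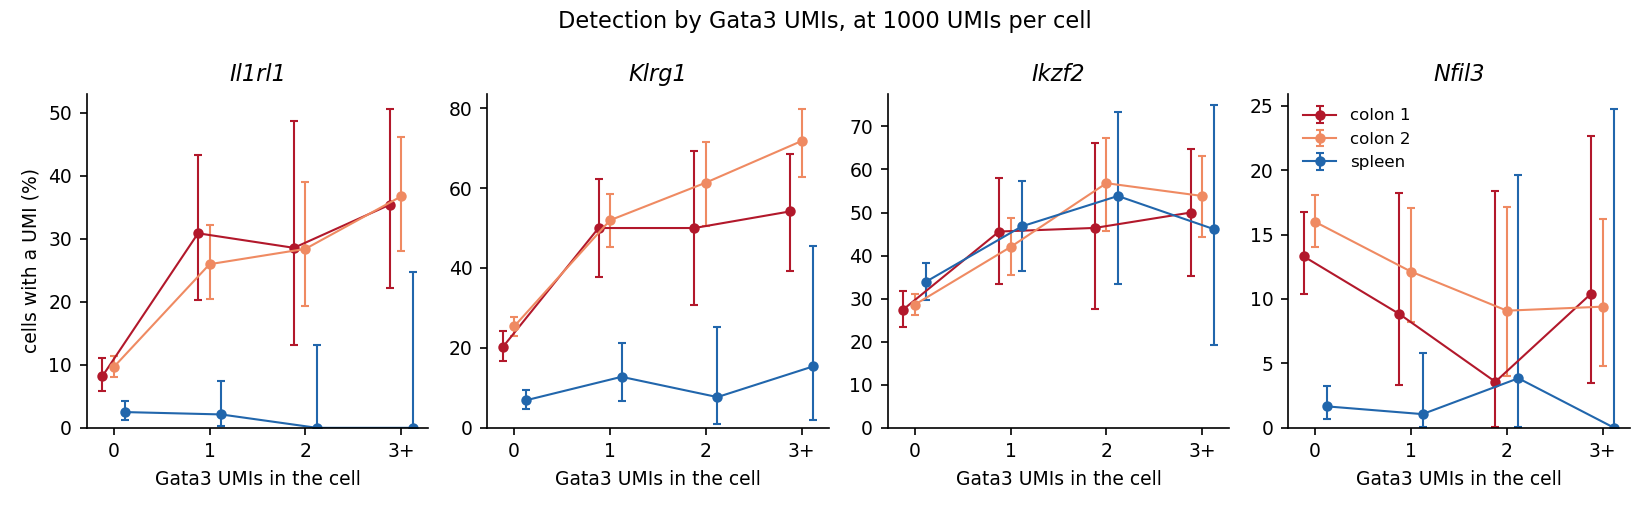
Percent of cells with a UMI of Il1rl1, Klrg1, Ikzf2 and Nfil3 among cells with 0, 1, 2, and 3 or more Gata3 UMIs, in colon 1, colon 2 and spleen, at 1000 UMIs per cell with 95% Clopper-Pearson intervals. In colon 2 Klrg1 climbs to 71.8% and Il1rl1 to 36.8% of cells with 3 or more Gata3 UMIs, while in spleen Il1rl1 stays at or under 2.50%.

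In colon, levels went the same way as the shares of cells. With all UMIs counted, Il1rl1 stood at 603.8 CPM in Gata3+ and 158.5 CPM in Gata3- cells of colon 1, which is 3.81-fold (3.07 to 4.74), and at 465.5 and 124.2 CPM in colon 2, 3.75-fold (3.27 to 4.30). In spleen it stood at 37.4 and 25.4 CPM, 1.48-fold (0.720 to 2.97), an interval that includes 1. The share of spleen cells with Il1rl1 went the other way, 1.504% of Gata3+ and 2.50% of Gata3- cells. Gata3 itself stood at 877.2 and 896.3 CPM in Klrg1+ cells, against 297.2 and 206.5 CPM in Klrg1- cells of colon 1 and colon 2, and at 535.8 against 264.3 CPM in spleen, 2.03-fold (1.56 to 2.61). Spleen Klrg1+ cells thus held more Gata3, while spleen Il1rl1+ cells did not stand apart, at 334.1 against 294.2 CPM (1.14-fold, 0.694 to 1.76). Positive cells were somewhat deeper, with medians of 1790 and 2151.5 UMIs in Gata3+ and 1743 and 1975 in Gata3- colon cells.

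Rora was seen in few cells. It shared 2 cells of colon 1 and 9 of colon 2 with Gata3, where 2.36 and 8.25 were expected, and 5 and 11 cells with Klrg1, where 2.75 and 11.2 were expected. With Il1rl1 it shared 4 and 8 cells, where 1.38 and 4.81 were expected. In spleen, Rora shared no cell with any of them. In colon 2, where the expected number reached 5, the ratios were 1.09 (0.499 to 2.07) with Gata3 and 0.985 (0.492 to 1.76) with Klrg1. Both intervals include 1. By level over all UMIs, Il1rl1 was higher in Rora+ than in Rora- cells, 2.14-fold (1.39 to 3.17) in colon 1 and 1.42-fold (1.06 to 1.86) in colon 2. Klrg1 was 1.67-fold (1.22 to 2.23) and 1.15-fold (0.981 to 1.34), and Gata3 1.41-fold (0.942 to 2.03) and 1.17-fold (0.936 to 1.44). Rora+ cells were deeper, with medians of 2436 and 2165 UMIs, against 1754 and 2019 in Rora- cells, and the part of depth was not tested.

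Of the partner genes, Areg, which encodes the tissue repair factor amphiregulin, was paired with each of the 3 genes. It was found in 24.3% of Gata3+ and 10.7% of Gata3- cells of colon 1 and in 20.2% and 8.18% in colon 2. The observed over expected ratios were 1.74 and 1.81 with Gata3, 2.39 and 1.97 with Il1rl1, and 1.67 and 1.67 with Klrg1. Penk, which encodes proenkephalin, was paired at 1.91 and 1.98 with Il1rl1 and 1.62 and 1.66 with Klrg1, and at 1.45 and 1.78 with Gata3. In colon 1 all 3 of these intervals include 1. Its level was 1169.6 and 1309.5 CPM in Il1rl1+ cells, against 182.5 and 195.3 CPM in Il1rl1- cells. Ikzf2, which encodes Helios, was paired with Gata3 at 1.47 (1.14 to 1.86) and 1.44 (1.25 to 1.65) in colon. In spleen the ratio of Ikzf2 with Gata3 was 1.30, with an interval of 1.001 to 1.66 that barely leaves out 1. Ikzf2 was found in 47.2%, 48.2% and 48.1% of Gata3+ cells of colon 1, colon 2 and spleen, against 27.5%, 28.6% and 33.96% of Gata3- cells.

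Il10, Maf, Nfil3 and Foxp3 were near or below the expected numbers with Gata3. Il10, which encodes an anti-inflammatory cytokine, was found in 47.2% of Gata3+ and 49.4% of Gata3- cells of colon 1 and in 46.8% and 50.5% in colon 2, ratios of 0.967 (0.751 to 1.23) and 0.943 (0.818 to 1.08). Maf, a transcription factor of colon Tregs, was at 0.993 and 0.840 times the expected cells with Gata3, with an interval below 1 in colon 2 only (0.730 to 0.961). Nfil3, which encodes a basic leucine zipper factor, was found in 8.33% and 10.8% of Gata3+ cells, against 13.3% and 15.98% of Gata3- cells, at ratios of 0.687 (0.355 to 1.20) and 0.734 (0.540 to 0.977). Its level in Gata3+ cells was 0.647 (0.466 to 0.886) and 0.664 (0.569 to 0.772) times that in Gata3- cells. Foxp3 was at 1.07 and 0.862 times the expected with Gata3, and both intervals include 1.

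**Figure D5:**
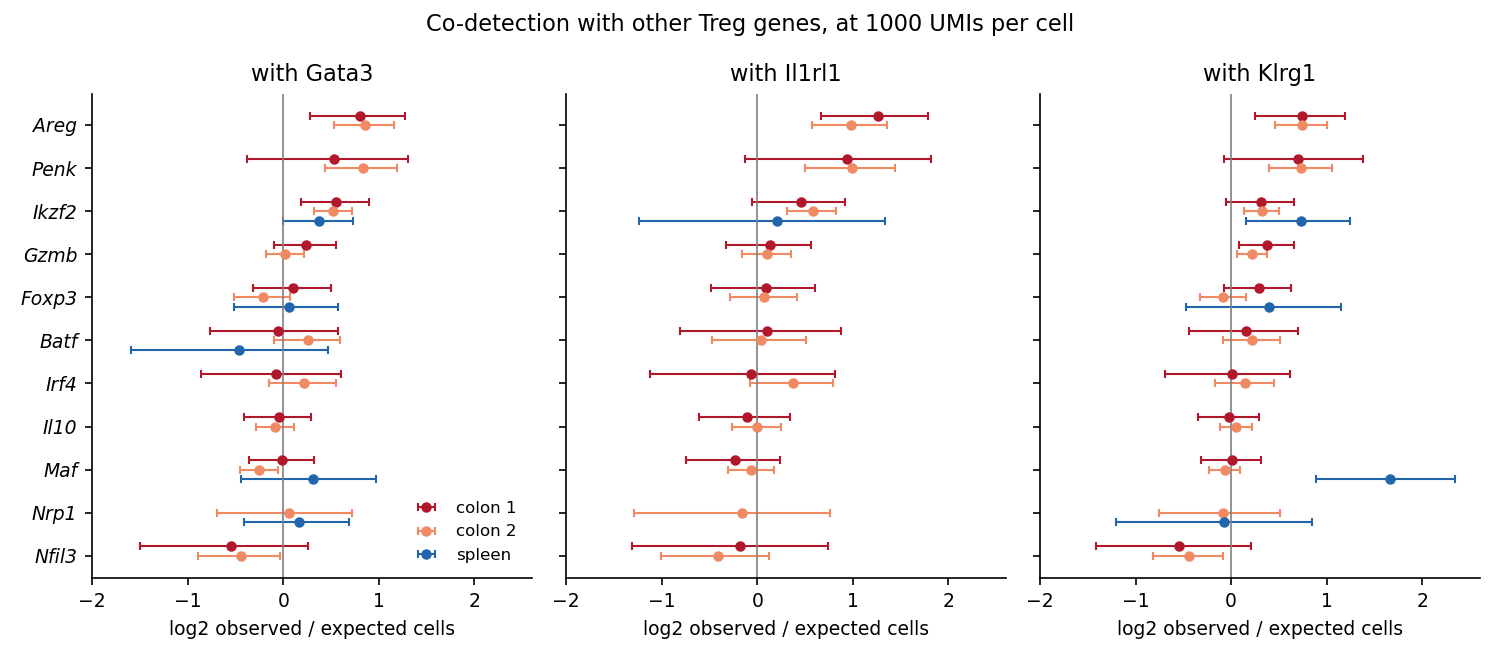
Log2 of observed over expected cells with both genes, with exact 95% intervals, for 11 partner genes with Gata3, Il1rl1 and Klrg1 in colon 1, colon 2 and spleen at 1000 UMIs per cell, leaving out points with under 5 expected cells. Areg, Penk and Ikzf2 lie to the right of 0 in colon, Il10 lies near 0 and Nfil3 to its left, and the spleen point of Klrg1 with Maf lies at 1.67.

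In spleen, Maf, Gzmb, Il10 and Ikzf2 were higher in the few Klrg1+ cells. Maf was found in 34.7% of Klrg1+ and 8.87% of Klrg1- spleen cells, 3.17 times (1.85 to 5.08) the expected number, while in colon the same ratio was 1.01 (0.803 to 1.24) and 0.954 (0.853 to 1.06). Gzmb, which encodes the cytotoxic protease granzyme B, stood at 250.9 CPM in Klrg1+ and 13.5 CPM in Klrg1- spleen cells, with 5 of 49 Klrg1+ cells positive at 1000 UMIs. In colon it stood at 3457 and 3593 CPM in Klrg1+ cells and 2199 and 1990 CPM in Klrg1- cells. Il10 stood at 189.9 and 23.5 CPM in Klrg1+ and Klrg1- spleen cells, from 28 and 26 UMIs. Only 3 of 49 Klrg1+ cells were positive for Il10 at 1000 UMIs, too few for a ratio. Ikzf2 was found in 61.2% of Klrg1+ and 34.9% of Klrg1- spleen cells. These spleen values rest on 65 Klrg1+ cells, whose median was 2095 UMIs, against 1824 UMIs in the Klrg1- cells.

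Against all genes, such pairings were uncommon in colon. With Gata3, 7 of 2979 genes with at least 5 expected cells in both colon libraries (0.235%) reached 1.5 times the expected cells in both, namely Il1rl1, Klrg1, Areg, Pdcd1, Plac8, Nfkbiz and Bcl2l1. With Il1rl1 it was 19 of 2009 (0.946%) and with Klrg1 9 of 3159 (0.285%). Both other eligible members were within each count, and Areg was the gene common to all 3. Il1rl1 and Klrg1 shared Areg, Gata3, Penk, Egln3 and Icam1. The genes of the Il1rl1 count included Nfkbiz (2.05 and 1.85), Nfkbie (2.23 and 1.60), Birc3 (2.10 and 1.78) and Cd83 (1.70 and 1.73), genes known to respond to NF-κB. The members, Areg and Penk were chosen by name with earlier results of these data known, so their place in these counts is not an independent test. The other genes were picked after their values were seen.

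At most 1/1.5 of the expected cells in both colon libraries was reached by 29 genes with Gata3 (0.973%), 26 with Il1rl1 (1.29%) and 28 with Klrg1 (0.886%). Ccr7, the chemokine receptor that guides T cells to lymph nodes, and Timp2, a metalloproteinase inhibitor, were in all 3 counts. Ccr7 was at 0.538 and 0.497 with Gata3, 0.115 and 0.539 with Il1rl1 and 0.173 and 0.309 with Klrg1. In spleen it was at 0.368 with Klrg1 and 1.15 with Gata3. The ratios of 0.115, 0.173 and 0.368 rest on very few cells with both genes, and no intervals were computed for them. S1pr1, the receptor by which lymphocytes leave tissues, was at 0.530 and 0.520 with Gata3 and 0.454 and 0.532 with Klrg1. Cxcr3, a chemokine receptor of type 1 T cells, was at 0.413 and 0.403 with Gata3, against 1.19 in spleen. These genes too were picked after their values were seen.

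The genes most alike to Gata3, Il1rl1 and Klrg1 across colon cells were led by one another. Likeness was Pearson's r of log2(UMIs + 1) at 1000 UMIs over 610 and 1744 cells, given as a description, with the smaller of both libraries deciding the order. For Gata3 they were Klrg1 (0.257 and 0.336), Il1rl1 (0.251 and 0.248), Tnfrsf9, Fam46a and H2afz. For Il1rl1 they were Klrg1 (0.264 and 0.263), Gata3, Nfkbia, Hopx and Tnfrsf4, and for Klrg1 they were Il1rl1, Gata3, Nfkbia, H2-D1 and Tnfrsf4. In spleen, r was 0.0581 between Gata3 and Klrg1 and -0.0363 between Gata3 and Il1rl1. All cells of a library share its amplification and sequencing, and the values are low. For Rora they were Ywhae, Rab4b, Abracl, Nfkb2 and Vasp, with r of 0.0520 to 0.0750, and 0 of these 5 remained with another random draw of UMIs. Between Rora and Il1rl1, r was 0.0822 and 0.0448.

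The genes around the members were taken from lists, each counted over members with at least 30 UMIs in all. Over all 9580 genes with 30 UMIs, 10.4% were higher by 2-fold or more in colon 1 and in colon 2 and 5.40% lower, and their median log2 ratios were near 0. Of 13 other genes of a GATA3-ST2 Treg programme, 7 were higher, namely Areg, Irf4, Nfil3, Penk, Il10, Ccr8 and Fgl2, and Nrp1 was lower, with medians of 2.82 and 2.83. The count is of levels between tissues, not of pairing with Gata3. Within colon, Areg was found with Gata3 above the expected cells, while Il10, Irf4 and Nfil3 were near or below them. Ikzf2 was at 611.2 and 616.1 CPM in colon and 766.8 CPM in spleen. Nrp1, a marker of thymus-derived Tregs, was at 41.5 and 50.8 CPM, against 324.9 CPM in spleen.

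Ligand, receptor and signalling genes of ST2 were read against the 10.4% of all genes that were higher. Il33 had 0 UMIs in every library, which allows up to 2.39 CPM in colon 1, 0.766 CPM in colon 2 and 2.39 CPM in spleen at 3 counts. Il1rap had 3, 27 and 8 UMIs in colon 1, colon 2 and spleen. Of 5 measured IL-1 family receptor genes, the decoy receptor Il1r2 (47.9 and 47.7 CPM, against 3.98 CPM in spleen) and Il1r1 were higher and none was lower, and Sigirr, an inhibitory receptor, was at 26.3 and 47.2 CPM, against 75.6 CPM. Of 12 MyD88 pathway genes, Irak3, which damps the pathway, was the only one higher in both, at 5.59 and 18.4 CPM, against 1.59 CPM. Its spleen level lay under the 2.39 CPM that 3 counts give there, so its ratios rest on very few UMIs. The adaptor Myd88 was at 47.1 and 37.5 CPM, against 49.4 CPM, and the NF-κB genes Nfkb1, Nfkbia and Rela had log2 ratios of 0.74 to 1.08.

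Other GATA factors were close to the limit of detection. Gata2 had 0 UMIs in every library, and Gata1 had 1 and 4 UMIs in colon and 13 in spleen. Of 3 measured cofactor genes, Lmo4 was higher (72.6 and 78.1 CPM, against 27.1 CPM), and Zfpm1 and Ldb1 were at log2 ratios of -0.44 to 0.12. Of 10 measured type 2 targets and upstream genes of GATA3, 4 were higher, Maf, the chemokine receptor Ccr4 (138.8 and 116.9 CPM, against 32.6 CPM), the IL-4 receptor chain Il4ra (329.5 and 389.1 CPM, against 101.1 CPM) and Il7r. The cytokine Il4 had 4 and 26 UMIs in colon and 0 in spleen, and Il13 had 4, 6 and 0. Among lineage factors opposed to GATA3, Tbx21 and Runx3 were higher and Tcf7 and Lef1 lower, and Tbx21, the type 1 factor, was at 21.5 and 33.4 CPM, against 3.98 CPM.

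For Rora, the clock genes Nr1d1, Nr1d2 and Per1 were higher and Dbp was lower. Nr1d1, a clock repressor and textbook target of ROR factors, was at 19.2 and 31.9 CPM in colon and 3.18 CPM in spleen, and Rorb had 10 and 18 UMIs in colon and 6 in spleen. For Klrg1, its cadherin ligand Cdh1 had 1, 3 and 2 UMIs, the phosphatases of its signalling Inpp5d (128.5 and 157.8 CPM, against 60.5 CPM) and Ptpn11 (75.8 and 54.6 CPM, against 45.4 CPM) were present, and Itgae, whose product binds the same cadherin, was at 159.6 and 126.9 CPM, against 44.6 CPM. No other killer cell lectin-like receptor gene of 8 reached 30 UMIs, and 5 of them had none in any library. Of 9 measured Treg identity genes, Ctla4, Cd4 and Tnfrsf18 were higher and Ikzf4 lower. Of the 15 dissociation genes, 6 were higher, led by the heat shock genes Hspa1a and Hspa1b, Fosb and Atf3, and Zfp36 was lower.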

How the data were processed

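The data are single-cell counts from 3 inDrops libraries, 2 of colon and 1 of spleen Tregs. The authors deposited 1 table of counts of unique molecular identifiers (UMIs) per gene and cell, not normalized, as its whole values show. TopHat2, SAMtools and the mm10 build appear, unversioned, in the submitters' processing notes, while annotation, UMI collapsing and cell selection are not stated in those notes or labels. All 3008 cells were mapped to a library by the labels, 619 to colon 1, 1772 to colon 2 and 617 to spleen, and 0 columns were left out. Of these, 610, 1744 and 613 cells had 1000 UMIs or more. A 3′ count does not resolve transcripts or protein.

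UMIs were summed per library and scaled to counts per 1000000 (CPM). Ratios of colon over spleen have exact conditional binomial 95% intervals, CPM Poisson and shares Clopper-Pearson intervals. Amplified reads are collapsed to UMIs, and intervals and the floor of 3 counts for a gene at 0 cover counting error only, not the spread between mice. Shares and co-detection used cells thinned to 1000 UMIs with a fixed random seed. A ratio of observed over expected cells needed 5 expected cells. Counts of genes used those with at least 50 CPM in spleen or in both colon libraries and a ratio of 2 in both, which 409 of 3482 genes passed as higher and 155 as lower. Genes compared for likeness had 100 CPM in both colon libraries, leaving out T cell receptor, immunoglobulin, mitochondrial, ribosomal protein and unnamed genes. No cells were clustered and no doublet caller was run, and cells of very high UMIs were left out in an alternative instead. No cell type lacking the members was sorted, so the share of cells that free RNA gives was not measured. Promoter sequences are RefSeq's, matched by symbol for 3 of the 4 members. Code was tested on simulated counts. Python 3.11.15, numpy 2.4.6, scipy 1.17.1 and pandas 2.3.3 were used, with scaling factors of edgeR 4.0.16 and DESeq2 1.42.0 as alternatives.

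The members, lists, partner genes and tests were chosen with earlier results of these data known. Genes named were the members, fixed partner genes, up to 4 measured genes a list by size of the mean log2 ratio, and the 5 most alike each member. Genes outside this rule are said to be chosen after their values were seen. Splits of cells by UMIs of Gata3 and by the number of genes detected, and levels within them, were added after the data were seen. A withheld item and the lists that rest on it are not reported here.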

Additional observations from a re-analysis of the deposited data

Results flagged for a closer look

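Maf was found with Gata3 at log2 -0.01 and -0.25 of the expected cells in colon 1 and colon 2 and at log2 0.3083 in spleen, opposite in sign between the tissues. The difference was not tested, and only the colon 2 interval (-0.45 to -0.06) leaves out 0.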

How the results depend on the processing

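No paired analysis was possible because the cells of each tissue form 1 sample and no result comes from a test across samples. The sign of the members' level ratios, share differences and the pairings of Gata3, Il1rl1 and Klrg1 in colon was the same under each alternative run. Klrg1 with Rora in colon stood at log2 0.69 without thinning, 0.60 within 10 bins and -0.02 in colon 2 alone, and Gata3 with Il1rl1 in spleen at 0.53 without thinning, all with intervals across 0. In contrast, the list medians of the GATA family (-0.35 to 0.12) and the IL-1 receptors (-0.13 to 0.40) crossed 0. The limits are depth, 1 spleen library and the confounding of tissue with dissociation. TMM factors of edgeR, median of ratios, equal weight per cell, and leaving out deep cells or cells with 2 markers of another type moved no member's log2 ratio out of its interval. Totals without ribosomal protein genes moved the median of all eligible genes to -0.24, Gata3's mean log2 ratio to 0.54 and Klrg1's to 1.88, against 0.75 and 2.09. Leaving out a colon library gave 1.86 to 2.32 for Klrg1. The difference in the percent of cells with a UMI, colon minus spleen, was 16.2 at 1500 UMIs, 8.39 at 500 and 16.5 without thinning for Il1rl1 (11.9 at 1000), 15.2 at 500 for Klrg1 (22.7), 2.83 without thinning for Rora (1.44), and 5.90 at 500, 1.28 at 1500 and 0.558 without thinning for Gata3 (2.61). The percent of genes higher, 11.7, was 4.83 at 4-fold, 14.02 at 100 CPM, 9.64 at 20 CPM and 7.74 with no minimum. The percent lower, 4.45, was 0.689, 3.89, 5.58 and 9.56 in that order, 7.99 without ribosomal protein genes, and 6.67 to 7.36 with a colon library left out. The co-detection of Gata3 and Il1rl1 in colon ranged over log2 0.89 to 1.21, of Gata3 and Klrg1 over 0.66 to 0.90, and of Il1rl1 and Klrg1 over 0.85 to 1.05, each lowest where expected cells were summed within 10 bins of UMIs. Of the 5 genes most alike each member, at least 3 remained for Gata3 and Il1rl1, 2 for Klrg1 and 0 for Rora.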
